A study of Mus musculus with 4 samples.

Results

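The contacts of the keratin genes were examined in a list of chromatin interactions deposited with H3K27ac libraries of mouse brain cells, read here as HiChIP. The sample titles call the libraries ChIP-seq, but the extraction protocol and the series design name HiChIP, and the list holds pairs of anchors. Members were the autosomal protein-coding genes of mm10 whose symbol is Krt followed by digits, 53 of 20661 autosomal coding genes in the RefSeq annotation of GRCm38.p6. All 53 lay in the known clusters, 27 in the type I cluster on chromosome 11 and 26 in the type II cluster on chromosome 15. For each gene, an interaction was counted when one of its anchors, a bin of 10 kb, reached to within 2.5 kb of the lowest or the highest coordinate of the gene, called its ends here. The members were chosen by name and position, not by their contacts, but with earlier results of these data known.

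HiChIP ligates DNA segments that are neighbours in the nucleus and keeps those carrying a chosen protein or mark, here acetylated lysine 27 of histone H3, a mark of active promoters and enhancers. The labels describe 2 libraries of mouse neural stem cells in culture, of wild-type genotype, and 2 libraries of YAP-M tumor, of genotype YAP-M fusion, all made with an H3K27ac antibody. The fusion named YAP-M joins the co-activator YAP1 to MAMLD1, and the series concerns ependymoma, a brain tumor. The list held 99041 interactions and named no library. The letters YM in its name are read here as the tumor, so no comparison with neural stem cells was made, no spread between replicates exists, and read depth is unknown. A gene without an interaction was therefore not detected in this list rather than shown to have no contact. The shortest listed distance was 20 kb and the longest 1000 kb, and pairs on different chromosomes were not listed.

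Keratins build the intermediate filaments of epithelial cells. Each filament is made of pairs of a type I and a type II protein, such as Krt18 with Krt8 in simple epithelia, Krt14 with Krt5 in basal keratinocytes and Krt10 with Krt1 in the layers above. The genes arose by tandem duplication, and in mammals all type I genes except Krt18 lie in one cluster and all type II genes in another, where Krt18 stands beside Krt8. In the nervous system the glial and neuronal filaments are made mainly from other genes of the family, such as Vim, Gfap and Nes.

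Most keratin genes had no listed contact, and those that did were concentrated at a few places in the clusters. At least 1 interaction was found at 16 of 53 keratins (30.2%, exact 95% interval 18.3 to 44.3%), against 65.7% of all autosomal coding genes. The median was 0 interactions per keratin and 2 per coding gene, although both medians were 0 when the centre of an anchor bin had to lie in the window or when shared bins were left out. The share was 14.8% in the type I cluster (4 of 27, interval 4.19 to 33.7%) and 46.2% in the type II cluster (12 of 26, interval 26.6 to 66.6%). Counted by protein type instead of chromosome, with Krt18 moved to type I, 5 of 28 type I genes (17.9%) and 11 of 25 type II genes (44.0%) had an interaction. The intervals cover counting error only and treat genes as independent, although 37 of the 53 keratins had an end bin shared with another keratin. When the centre of an anchor bin had to lie in the window, the keratin share was 15.1%, against 40.5% of all coding genes, with 11.1% in the type I and 19.2% in the type II cluster. At annotated starts, an interaction was found at 3 of 20 type I and 4 of 16 type II cluster genes (25.0%). With 1 list there is no test across samples, and the difference between the clusters was not tested.

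Keratins are short genes, with a median length of 7.1 kb against 17.5 kb for all coding genes, and so occupy fewer end bins (a median of 2 against 3). With 2 end bins, 5287 of 8788 coding genes (60.2%) had an interaction, and among keratins with 2 end bins 27.5% did (11 of 40). Only 2 keratins, Krt222 and Krt40, shared an end bin with a coding gene other than a keratin, and neither had an interaction. Most coding genes outside the clusters had an interaction. Within 500 kb outside the type I cluster, 33 of 37 coding genes were contacted (median 6 interactions), and outside the type II cluster 30 of 32 were (median 4). The last anchor bin below the type I cluster ended at 99160000, so the flank directly beside Krt222 held none. Whether coverage differed between the clusters and their flanks was not tested.

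**Figure D1:**
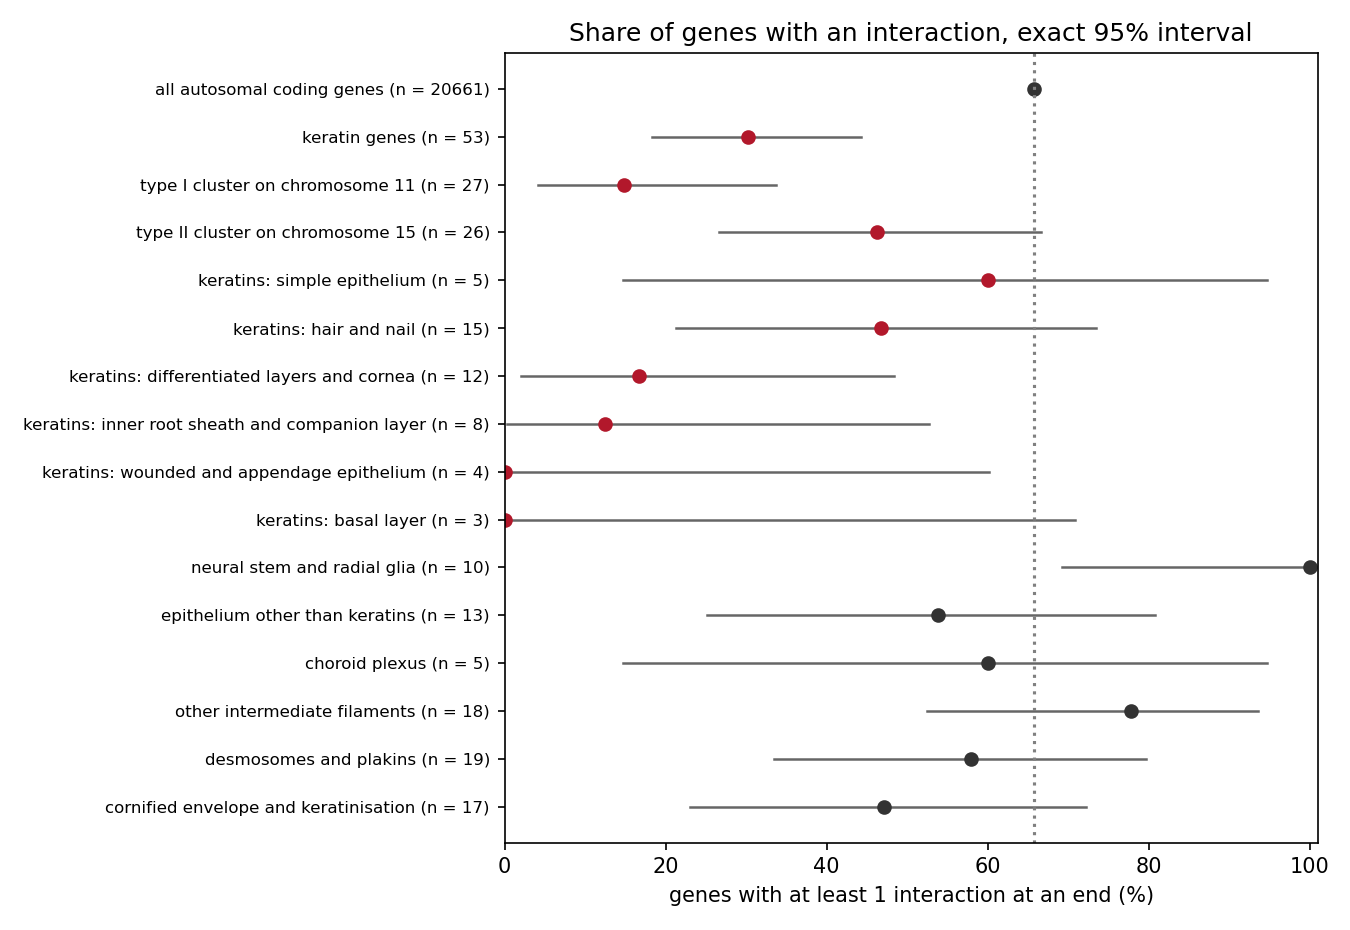
Share of genes (x axis, %) with at least 1 interaction at an end, for all coding genes, the keratins by cluster and by tissue of known expression, and other gene lists (y axis, with the number of genes). Points are shares, bars exact 95% intervals and the dotted line the 65.7% of all coding genes; the type I cluster sits lowest of the clusters at 14.8% and the neural stem list stands at 100%.

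The type I cluster spans 1037 kb on chromosome 11 from 99232761 to 100269951, and 38 interactions had an anchor inside it. Of its 27 keratins, 4 had an interaction, and 23 distinct interactions touched their ends. Krt23, an acidic keratin, had 13 interactions, Krt33a, a hair keratin, had 10, Krt39, another hair keratin, had 3, and Krt12, the keratin of corneal epithelium, had 1. Krt23 and Krt33a together touched 21 of these 23 distinct interactions. Krt23 and Krt33a lie on either side of the block of keratin-associated protein genes that divides the type I cluster. Krt39 and Krt40 lie between Krt23 and that block, and Krt40 had no interaction. As background, keratin-associated proteins form the matrix in which hair keratin filaments are embedded.

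All 13 interactions of Krt23 led to higher coordinates, over 50 to 820 kb. Of these, 12 arose at its low-coordinate end, in the bin from 99470001 to 99480000, and 1 at the high-coordinate end, where the gene starts. All 10 interactions of Krt33a led to lower coordinates, over 330 to 540 kb. Krt23 and Krt33a were thus turned toward each other, and 2 interactions joined them directly. Krt39 was joined to Krt23 by 1 interaction and to Krt33a by another. Krt23 reached the bins of Krtap3-2 and Krtap3-3, Krtap1-5, Krtap2-4, Krtap4-1 and Krtap4-2, and Krt33a those of Krtap3-2 and Krtap3-3, Krtap1-3 to Krtap1-5, Krtap4-1, Krtap4-2 and Krtap4-6. Of the 23 interactions at keratin ends of the cluster, 10 (43.5%) had their other anchor at a keratin-associated protein gene end. Another 4 (17.4%) joined 2 keratin ends. The remaining 9 led to bins between coding genes. The anchor of Krt33a lay at the margin of its window: 9 of its 10 interactions were in the bin from 100000001 to 100010000, below the gene, and with a window of 0 kb Krt33a had 1. Krt23 kept all 13 with a window of 0 kb, since its end lies inside its anchor bin. When the centre of the bin had to lie in the window, Krt23 and Krt33a had 1 each.

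The other 23 keratins of the type I cluster had none. The low-coordinate edge, from 99230001 to 99410000, was a stretch of 180 kb without an anchor that held both ends of 7 keratins, namely Krt222, Krt24, Krt10 and the inner root sheath keratins Krt25, Krt26, Krt27 and Krt28. At the other side a stretch of 200 kb, from 100070001 to 100270000, held 10 keratins, among them Krt13 and Krt15 of stratified epithelia, Krt19 of simple epithelia, Krt14 of the basal layer, Krt9 of palm and sole skin, and Krt16 and Krt17, which are induced in wounded skin. It was spanned by 4 interactions, whereas none spanned the low-coordinate stretch. The hair keratins Krt33b, Krt34 and Krt31 lay in a further empty stretch of 40 kb. Krt42, at the high-coordinate edge, Krt20 and Krt40 were the other members without an interaction. The longest empty stretch of the cluster, 280 kb within the block of keratin-associated protein genes, held no keratin and was spanned by 27 interactions.

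**Figure D2:**
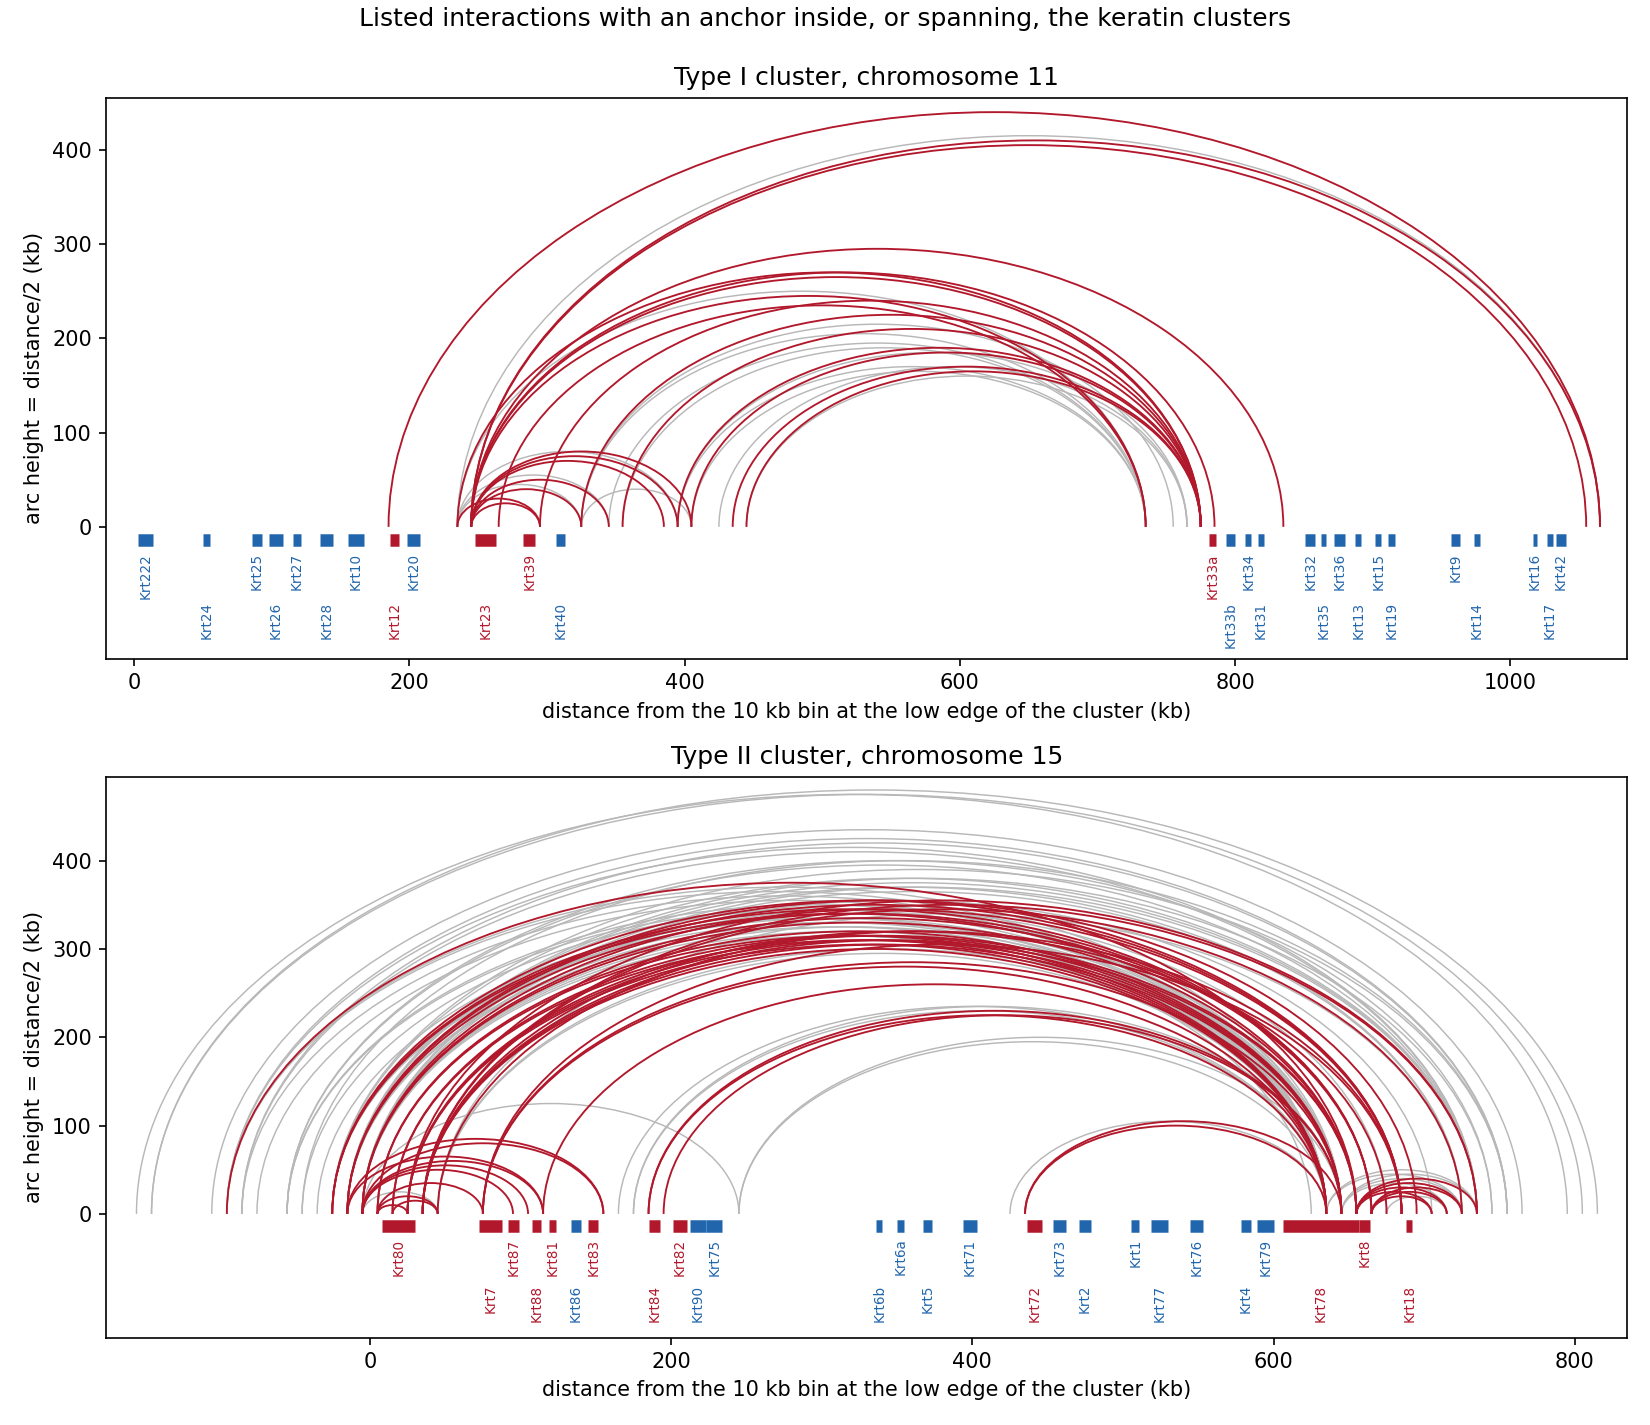
Interactions with an anchor inside a keratin cluster or spanning it (arcs, height equal to distance/2 in kb) against the distance from the low edge of the cluster (x axis, kb); red arcs have an anchor at a keratin end and grey arcs do not, and red genes have an interaction while blue genes have none. In the type I cluster red arcs start mainly at Krt23 and Krt33a, and in the type II cluster they pass from the side of Krt80 and Krt7 over 12 middle genes to the side of Krt8 and Krt18.

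The type II cluster spans 684 kb on chromosome 15, from 101348315 to 102032026, and 84 interactions had an anchor inside it. The 51 distinct interactions at its keratin ends joined mainly its low and high edges. Krt80, an epithelial keratin at the low edge, had 18 interactions, the highest count of any keratin. Krt8 had 15 and its partner gene Krt18 had 6, at the high edge, and Krt7, the type II keratin of ducts and other simple epithelia, had 5. Together these 4 genes touched 40 of the 51 interactions. Krt78, which lies beside Krt8, had 9, all in the bin from 101990001 to 102000000 that it shares with Krt8, so they are the same interactions as 9 of the 15 of Krt8. None touched the annotated start of Krt78. With a window of 0 kb Krt80 had 11 interactions and Krt7 had 4, while Krt8, Krt18 and Krt78 kept 15, 6 and 9. When the centre of the bin had to lie in the window Krt80, Krt7 and Krt18 had 0, and Krt8 and Krt78 still had 15 and 9.

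The contacts of Krt80 ran across the cluster. Except for 1 interaction between its own ends, all led to higher coordinates, with a median distance of 620 kb and a maximum of 710 kb. Of the 18, 8 led to the bins from 101970001 to 101990000, 2 to the bin shared by Krt78 and Krt8, 2 to an end of Eif4b, a translation initiation factor gene beyond the cluster, and 1 to Krt7. Krt18 was the mirror image, with all 6 interactions to lower coordinates over 610 to 710 kb. Krt8 had partners on both sides. The 8 lower ones lay at the low edge of the cluster and beyond, up to 750 kb away, and the 7 higher ones lay from beyond Krt18 up to Eif4b, the nearest 40 kb away.

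Krt7 was linked to Krt18 by 1 interaction of 610 kb, between the bin from 101410001 to 101420000 and that from 102020001 to 102030000, which hold the starts of both genes. As background, the Krt7 and Krt18 proteins occur together in simple epithelia. Krt7 was also linked to Krt80 by 1 interaction of 70 kb. No interaction joined Krt8 with Krt18, whose start bins are 20 kb apart, the shortest distance in the list. In all, 5 of the 51 interactions at keratin ends of the cluster joined 2 keratin ends.

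The upstream sequences of 6 keratins are shown, for 4 genes with contacts and for the basal pair Krt5 and Krt14, which had none. Each runs over the 250 bases before the annotated start, 5′ to 3′ on the strand of the gene, with CpG dinucleotides in capitals, as given by RefSeq for GRCm38.p6. For Krt14 the annotated start, 100206030, lies inside the gene span, which ends at 100207510, so its sequence lies within that span. Krt7 lies at chr15:101412153-101412402 on the plus strand, Krt18 at chr15:102027966-102028215 (plus), Krt8 at chr15:102004343-102004592 (minus), Krt23 at chr11:99493121-99493370 (minus), Krt5 at chr15:101712906-101713155 (minus) and Krt14 at chr11:100206031-100206280 (minus).
Krt7: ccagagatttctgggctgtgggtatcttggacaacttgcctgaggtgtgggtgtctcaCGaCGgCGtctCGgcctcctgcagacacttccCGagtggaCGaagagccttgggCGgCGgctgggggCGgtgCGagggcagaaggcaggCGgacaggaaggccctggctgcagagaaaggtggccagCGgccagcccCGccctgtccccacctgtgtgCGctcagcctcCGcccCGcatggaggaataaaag
Krt18: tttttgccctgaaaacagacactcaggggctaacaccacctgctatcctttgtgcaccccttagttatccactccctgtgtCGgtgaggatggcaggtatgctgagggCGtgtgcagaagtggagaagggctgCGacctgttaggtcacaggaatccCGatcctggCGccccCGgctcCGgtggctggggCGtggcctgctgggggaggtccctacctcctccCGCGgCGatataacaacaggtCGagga
Krt8: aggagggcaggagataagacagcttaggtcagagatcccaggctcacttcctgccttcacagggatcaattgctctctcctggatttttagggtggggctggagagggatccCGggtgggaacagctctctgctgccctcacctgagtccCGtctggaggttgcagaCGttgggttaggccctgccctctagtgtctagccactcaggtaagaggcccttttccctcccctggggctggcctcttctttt
Krt23: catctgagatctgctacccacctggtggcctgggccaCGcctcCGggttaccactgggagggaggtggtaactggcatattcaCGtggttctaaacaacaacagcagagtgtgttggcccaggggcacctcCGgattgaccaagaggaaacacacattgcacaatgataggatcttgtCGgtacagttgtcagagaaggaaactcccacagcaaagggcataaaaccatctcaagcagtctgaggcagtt
Krt5: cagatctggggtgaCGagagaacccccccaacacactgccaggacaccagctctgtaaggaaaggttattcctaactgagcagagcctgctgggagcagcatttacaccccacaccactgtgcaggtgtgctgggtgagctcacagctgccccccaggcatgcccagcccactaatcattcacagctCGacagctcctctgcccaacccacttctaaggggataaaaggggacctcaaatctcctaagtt
Krt14: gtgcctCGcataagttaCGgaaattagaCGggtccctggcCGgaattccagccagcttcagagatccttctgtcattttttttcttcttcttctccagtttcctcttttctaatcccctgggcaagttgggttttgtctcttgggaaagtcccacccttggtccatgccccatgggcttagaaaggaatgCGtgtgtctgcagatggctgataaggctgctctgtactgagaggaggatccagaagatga

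The start windows of Krt8 and Krt18 had 6 interactions each, that of Krt7 had 4 and that of Krt23 had 1. The number of CpG dinucleotides differed among these genes. Krt7 had 16 and Krt18 had 12, whereas Krt23 and Krt14 had 5 each, Krt8 had 3 and Krt5 had 2. At the other starts with an interaction, Krt39 had 8, Krt12 had 6 and Krt84 had 2. Whether CpG number and interactions go together was not tested.

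Of the 53 keratins, 36 had an entry in the promoter table, with 37 promoters (Krt13 had 2). An interaction overlapped the start window of 7 of the 36 (19.4%, exact 95% interval 8.19 to 36.0%), against 60.1% of the 16456 coding genes in the same table. They were Krt12, Krt23, Krt39, Krt7, Krt84, Krt8 and Krt18. Their upstream sequences had a median of 6 CpG dinucleotides, the 30 of the other keratins a median of 3, and the 20084 of all coding genes a median of 10. TATAAA, the letters of a core promoter element, was searched on both strands and at any position. It was found in 17 of 37 keratin promoters (45.9%) and in 11.7% of all. It was present at 2 of the 7 starts with an interaction and at 15 of the 30 promoters without one. Those 2 were Krt12 and Krt84, and the match of Krt84 lay on the opposite strand, at the far side from the start. The TEAD motif GGAATG, searched on both strands, was present in 3 keratin promoters (8.11%, against 11.5% of all), those of Krt20, Krt14 and Krt78. The AP-1 motif TGANTCA, also on both strands, occurred in 2 (5.41%, against 6.18%), both of Krt13. None of the 7 promoters with an interaction at the start held either of these motifs, which could overlap each other. A match is a run of letters and not a measured site, and these 250 bases are a small part of a 10 kb anchor.

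The most connected bins in the type II cluster held no gene end. The bin from 101970001 to 101980000 had 23 interactions and the next one had 20. Both lie inside the annotated span of Krt78, 15.7 kb or more upstream of its annotated start, and the nearer one ends 6.7 kb below the low-coordinate end of Krt8. Together they had 43 interactions, of which 16 led to ends of 7 keratins: Krt80, Krt7, Krt72, the hair keratins Krt81, Krt82 and Krt84, and Krt88. All interactions of Krt84 (3), Krt82 (1) and Krt72 (2) led to these bins. Counted over the whole gene span, Krt78 had 53 interactions.

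Krt88 and the hair keratins at the low edge had few contacts each. Krt88 had 4, Krt81 and Krt84 had 3, Krt87 and Krt83 had 2, Krt82 had 1 and Krt86 had none. The interactions of Krt87 and Krt83 led to the segment just below Krt80, at 101320001 to 101340000, over 100 to 170 kb. This segment lies between Smim41 and Krt80 and holds no coding gene. Its 2 bins had 11 and 15 interactions. In Krt81, Krt82, Krt87, Krt88 and Krt78 every interaction lay in a bin shared with another keratin, so their counts are not separate.

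Between the edges lay a middle with almost no anchors. From 101590001 to 101960000 the cluster held both ends of 12 keratins, and 1 of them, the inner root sheath keratin Krt72, had an interaction. A stretch of 170 kb without an anchor held Krt6b and Krt6a, which are induced in wounded skin, Krt5 of the basal layer and Krt71 of the inner root sheath. Another of 180 kb held Krt1 and Krt2 of the upper epidermis, Krt4 of the oral and oesophageal lining, and Krt73, Krt76, Krt77 and Krt79. Krt75, of the companion layer of the hair follicle, and Krt90 lay in a further one of 40 kb, below the middle. The 370 kb of the middle were spanned by 75 interactions with an anchor on either side, over 390 to 960 kb. Of these, 3 had both anchors at keratin ends, 29 had 1 and 43 had none. The empty stretches listed for each cluster were among its longest and were cut at its edges. They held all 14 keratins of the type II cluster without an interaction and 20 of the 23 of the type I cluster. This is no separate result, because a keratin without an interaction has no anchor in its end bins by the way it was counted.

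**Figure D3:**
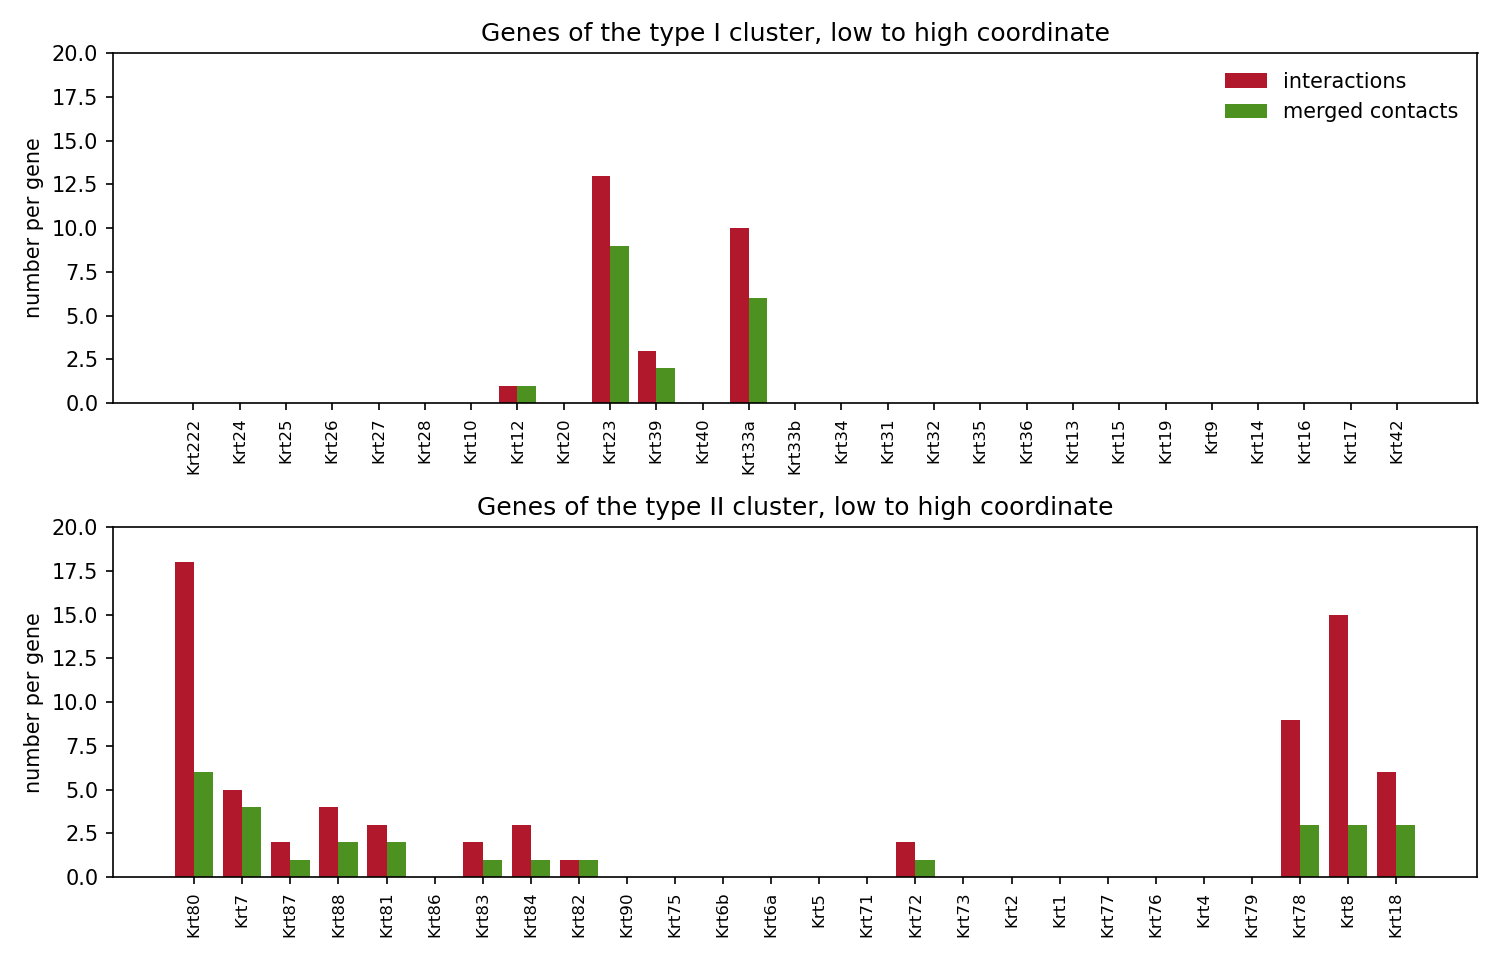
Number of interactions (red bars) and of contacts after merging adjacent interactions (green bars) at the ends of each keratin gene, in chromosomal order (x axis), for the type I and the type II cluster. The highest bars are Krt80 with 18 interactions and Krt8 with 15, and the genes between Krt82 and Krt78 stand at 0 except Krt72 with 2.

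Keratin interactions were long. The median distance was 485 kb, 420 kb in the type I and 600 kb in the type II cluster, against 180 kb for the whole list. Distances of 500 kb or more made up 48.6% of keratin interactions (36 of 74) and 9.57% of all. The interactions of a cluster share anchors and are not independent. After merging of interactions with both anchors within 1 bin of each other, the 74 keratin interactions formed 30 contacts, 15 in each cluster. The largest such contact joined the segment from 101280001 to 101390000, which includes Krt80, to that from 101960001 to 102050000, which includes Krt8 and Krt18. It held 34 interactions, of which 19 had an anchor at a keratin end. All 19 were among the 36 of 500 kb or more, so this 1 contact weighs heavily in that share and in the type II median. Krt80 then had 6 contacts, Krt23 had 9, Krt33a had 6, and Krt8 and Krt18 had 3 each. By contacts Krt23 therefore stood above Krt80.

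**Figure D4:**
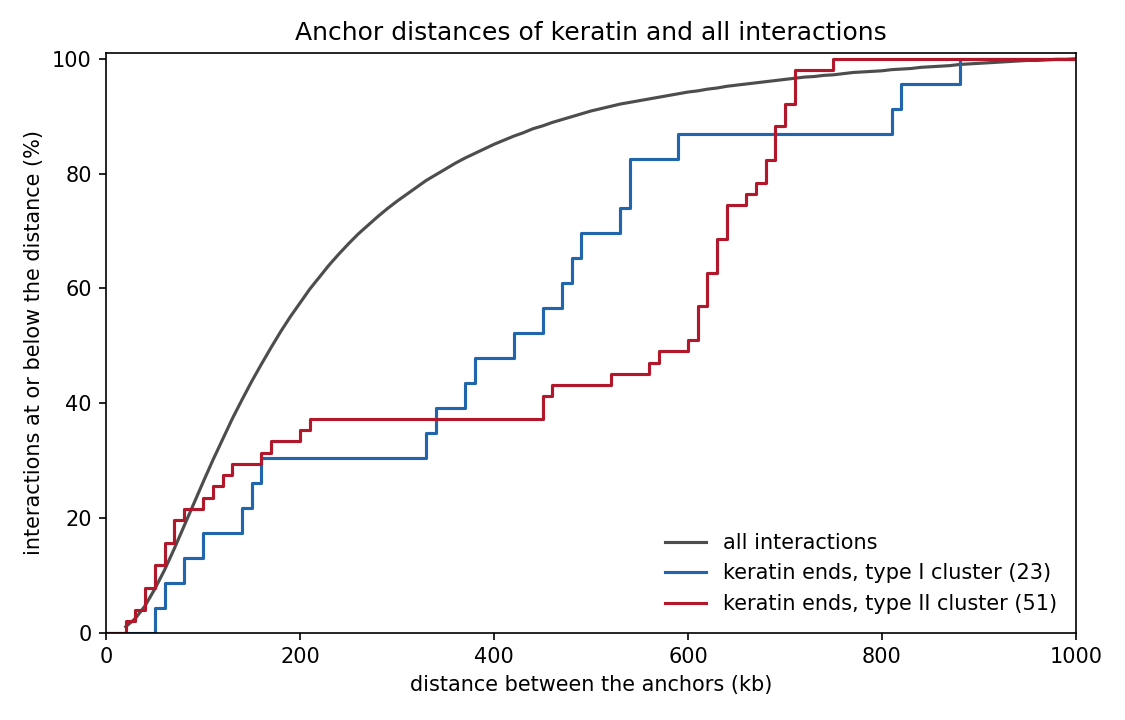
Cumulative share of interactions (y axis, %) against the distance between anchors (x axis, kb) for all interactions (grey), the 23 at type I cluster gene ends (blue) and the 51 at type II cluster gene ends (red). The medians are 180, 420 and 600 kb.

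The other anchors of keratin interactions fell mostly away from coding gene ends, as did most anchors of the whole list. Of the 56427 distinct anchors listed, each counted once, 18613 lay at a coding gene end. Of the 74, 36 (48.6%) led to bins between coding genes, 16 (21.6%) to a bin inside a coding gene, which was Krt78 in each case, 10 to keratin-associated protein gene ends and 9 joined 2 keratin ends. The remaining 3 (4.05%, exact 95% interval 0.844 to 11.4%) led to an end of another coding gene, Eif4b. Together, 13 of 74 (17.6%) reached an end of a coding gene that is not a keratin, 10 of them in the type I cluster. This share was 30.0% after merging and 3.85% by bin centre.

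By tissue of known expression, contacts were present at 3 of 5 simple epithelial keratins (Krt7, Krt8 and Krt18, but not Krt19 or Krt20), with a median of 5 interactions. That share, 60.0% (exact 95% interval 14.7 to 94.7%), is near the 65.7% of all coding genes, and by bin centre Krt7 and Krt18 had 0. Hair and nail keratins had them at 7 of 15, with a median of 0. Keratins of differentiated layers and cornea had them at 2 of 12, Krt12 and Krt78, and those of the inner root sheath and companion layer at 1 of 8, Krt72. None of 3 basal keratins (exact upper bound 70.8%) and none of 4 keratins of wounded and appendage epithelium (upper bound 60.2%) had an interaction. These groups are small and follow position in the clusters, so that tissue and position cannot be told apart.

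Keratin partners on different chromosomes cannot be linked in this list, but their counts can be set side by side. Krt5 and Krt14 both had 0, as had Krt1 and Krt10, and as had 37 of all 53 keratins. Of the simple epithelial partners, Krt8 had 15 and Krt18 had 6, both on chromosome 15, while Krt19 on chromosome 11 had 0.

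Other gene lists give the setting of these counts, beside 65.7% of all coding genes with an interaction and a median of 2. The 65.7% lies outside the exact 95% interval of the neural stem list only. The intervals were 52.4 to 93.6% for other intermediate filaments, 25.1 to 80.8% for epithelial genes and 33.5 to 79.7% for desmosomes and plakins. They were 23.0 to 72.2% for the cornified envelope and 14.7 to 94.7% for the choroid plexus. All 10 neural stem and radial glia genes were contacted (100%, exact 95% interval 69.2 to 100%) and their median was 19 interactions, among them Hes1 with 50, Sox2 with 27 and Vim with 26. Many of these were adjacent interactions. After merging, Hes1 had 5 contacts, Sox2 had 10 and Vim had 2, beside 9 for Krt23 and 6 for Krt80. Of 18 other intermediate filament genes, 14 were contacted (77.8%, median 6.5). After Vim, the nuclear lamin gene Lmnb1 also had 26 and Lmnb2 had 18. Among epithelial genes other than keratins, 7 of 13 were contacted (53.8%, median 1), led by the splicing factor gene Esrp1 with 11, the transcription factor genes Elf3 with 10 and Ovol1 with 8. Desmosome and plakin genes, whose products anchor keratin filaments, were contacted at 11 of 19 (57.9%, median 2). The highest were Pkp3 with 13, Plec with 10 and Evpl with 9. Genes of the cornified envelope and keratinisation were contacted at 8 of 17 (47.1%, median 0), led by Tgm3 with 11 and by Krtdap and Krtcap2 with 6 each. Choroid plexus genes had them at 3 of 5, with at most 2. The end bins of Lmnb1, Lmnb2, Esrp1, Elf3, Ovol1, Pkp3, Plec, Evpl, Krtdap and Krtcap2 were shared with a further coding gene.

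Among other tandem gene families, the keratin-associated protein genes had an interaction at 17 of 56 (30.4%, exact 95% interval 18.8 to 44.1%). Those of the type I cluster had one at 12 of 23 (52.2%, interval 30.6 to 73.2%), against 65.7% of all coding genes. Cytochrome P450 genes had one at 31 of 99 (31.3%, interval 22.4 to 41.4%), and the olfactory receptor genes of chromosome 2 at 0 of 287. The keratin share was thus close to that of 2 of these families, and no difference among them was tested.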

How the data were processed

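The labels describe H3K27ac libraries of mouse neural stem cells and YAP-M tumor, titled ChIP-seq but read as HiChIP from the extraction protocol and series design. Per the submitters' processing notes, BWA and mm10 were used; which interaction caller and threshold were used, and whether replicates were pooled, is not given in the sources used here. Per the file header, the deposited list gives only the chromosome, start and end of both anchors, with no count, score or library, so no test was run and depth per sample is unknown. Columns of per-sample values left unused numbered 0.

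Gene positions and promoter sequences came from RefSeq tables for GRCm38.p6, the assembly of mm10. The gene table has no strand, so both ends were used; the promoter table gave starts for 36 keratins. Counting and merging were tested on simulated interactions. Shares have exact (Clopper-Pearson) 95% intervals (scipy 1.17.1, Python 3.11.15).

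The members, tissue groups and gene lists were chosen with earlier results of these data known. Named keratins were 8 chosen in advance, the 10 with the most interactions, and those at the cluster edges; in other lists, the 3 highest. Krt12, Krt72, Krt82, Krt83, Krt86, Krt87 and the keratins listed in empty stretches were named after their values were seen. Alternatives were windows of 0 and 5 kb, anchor midpoints, whole gene spans, merged interactions, starts only, and bins without other coding genes. Leaving out bins that also held any other coding gene, keratins included, was added after the data were seen.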

Additional observations from a re-analysis of the deposited data

How the results depend on the processing

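No paired analysis was possible because the deposited interactions carry no library names, and leaving out a replicate could not be run for the same reason. The median per keratin was 0 under every alternative run and cannot fall lower; the median of all coding genes was also 0 by anchor midpoint and without shared bins. The share of keratins with an interaction was 15.1% by anchor midpoint (40.5% of all coding genes) and 19.4% at starts (60.1%). It was 20.8% without bins shared with any other coding gene (41.7%). Leaving out only bins shared with other coding genes than keratins left it at 30.2% (interval 18.3 to 44.3%), against 41.7% of all coding genes. Bins shared between keratins stayed in that count, whereas other genes lost every shared bin. A window of 0 kb removed Krt82 and one of 5 kb added Krt33b. The type II share was 19.2% by midpoint and 25.0% at starts, and the type I share stayed inside its interval throughout. Distinct keratin interactions numbered 26 by midpoint, 30 merged and 21 at starts; those of the type I cluster 3, 15 and 5; those of the type II cluster 23, 15 and 16, and 79 over whole gene spans. The share reaching a coding gene end outside the family was 3.85% by midpoint, 30.0% merged, 5.41% without bins shared with other coding genes than keratins, 4.92% without bins shared with any, and 0% at starts. By midpoint, where a bin counts only if its centre lies within 2.5 kb of a gene end, Krt80, Krt7 and Krt18 had 0 interactions, Krt23 and Krt33a had 1 each, and Krt8 kept 15. At a window of 0 kb Krt80 had 11, Krt33a 1 and Krt7 4, whereas Krt18 and Krt23 kept 6 and 13. Read depth limits every count and is unknown.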

Other observations

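The type II cluster was also bridged as a whole. On chromosome 15, 19 interactions passed over all of its genes without an anchor inside it, over 710 to 960 kb with a median of 800 kb, whereas 0 passed over the type I cluster. At the high side, 10 of the 19 had an anchor at an end of Eif4b and 5 at an end of Tns2, a focal adhesion gene, with some bins holding both. At the low side, 13 had an anchor away from coding gene ends, 3 at Atg101, an autophagy gene, and 2 at Nr4a1, an immediate-early nuclear receptor gene. An interaction over the whole type I cluster, which is 1037 kb long, would exceed the longest listed distance of 1000 kb.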
